A study of Mus musculus with 2 samples.

Results

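Expression of 9 genes, Ifitm1, Ifitm2, Ifitm3, B2m, H2-D1, H2-K1, Tap1, Tap2 and Tapbp, was described in tissue from above and below the dorsal aorta of the mouse embryo. They comprise the interferon-induced transmembrane family and the core of MHC class I antigen presentation, and all 9 were found by symbol among the 24675 genes that had one. Both pieces were cut by laser from the same C57Bl/6 embryos at embryonic day 10.5, the dorsal piece between the notochord and the aortic roof and the ventral piece beneath the vessel, where the first hematopoietic stem cells are sought. No genotype or agent set the pieces apart. Each piece gave 1 array, labelled biological replicate 4, and how many embryos each array held is not stated in the labels. With a single array on each side, differences cannot be checked between replicates and carry neither error nor p-value. The genes were chosen by function with these same levels in view, above all the ventral excess of Ifitm3, so every value is a description.

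Ifitm proteins are small membrane proteins that restrict the entry of enveloped viruses at the cell surface and in endosomes, and interferon raises their transcription. In the mouse embryo Ifitm3, first named fragilis, and Ifitm1 are also known as marks of primordial germ cells. Class I molecules show peptides from inside the cell to T cells. A heavy chain such as H2-K1 or H2-D1 pairs with the light chain beta-2-microglobulin, encoded by B2m, and without it the heavy chain does not reach the surface stably. The transporter formed by Tap1 and Tap2 brings peptides from the cytosol into the endoplasmic reticulum, and tapasin, encoded by Tapbp, holds the empty class I molecule beside it. Embryonic tissue is known for low class I expression.

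The windows around the transcription start of 6 of these genes are shown. Ifitm3 and B2m, the members more than 2-fold apart between the tissues, can thus be set beside other members. For Ifitm3 these are its paralogs, and for B2m the heavy chains that its product pairs with. Among them, Ifitm1 and H2-K1 were at background on both arrays. Each window, from RefSeq with build GRCm38.p6, runs from 250 bases before to 50 bases after the start and is read along the gene. Capitals mark GAAANNGAA, a core of the interferon-stimulated response element, the shorter spacing GAANNGAAA, and GGGATTCCC, a core of the NF-kappaB kind. Both strands were searched for each. Ifitm3 (chr7:141010695-141010994, minus strand), Ifitm2 (chr7:140955912-140956211, minus strand), Ifitm1 (chr7:140967826-140968125, plus strand), B2m (chr2:122147437-122147736, plus strand), H2-D1 (chr17:35262844-35263143, plus strand) and the first of 2 windows of H2-K1 (chr17:34000298-34000597, minus strand) read as follows.
Ifitm3: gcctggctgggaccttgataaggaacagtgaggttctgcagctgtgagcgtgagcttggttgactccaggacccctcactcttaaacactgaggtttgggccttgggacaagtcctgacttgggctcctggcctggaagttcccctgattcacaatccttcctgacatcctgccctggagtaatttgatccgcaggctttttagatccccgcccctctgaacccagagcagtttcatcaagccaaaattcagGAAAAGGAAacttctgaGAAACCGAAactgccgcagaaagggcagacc
Ifitm2: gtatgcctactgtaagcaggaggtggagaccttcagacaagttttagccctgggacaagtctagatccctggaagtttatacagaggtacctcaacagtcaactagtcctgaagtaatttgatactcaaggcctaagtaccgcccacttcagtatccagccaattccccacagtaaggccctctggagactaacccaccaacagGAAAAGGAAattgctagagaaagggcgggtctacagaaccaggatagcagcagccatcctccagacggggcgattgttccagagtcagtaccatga
Ifitm1: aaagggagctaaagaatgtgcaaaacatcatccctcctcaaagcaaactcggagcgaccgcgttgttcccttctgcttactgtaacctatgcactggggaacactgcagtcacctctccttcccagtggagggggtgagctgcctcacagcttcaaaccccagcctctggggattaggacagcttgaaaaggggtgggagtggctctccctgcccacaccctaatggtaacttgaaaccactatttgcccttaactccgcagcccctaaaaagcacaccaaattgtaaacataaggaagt
B2m: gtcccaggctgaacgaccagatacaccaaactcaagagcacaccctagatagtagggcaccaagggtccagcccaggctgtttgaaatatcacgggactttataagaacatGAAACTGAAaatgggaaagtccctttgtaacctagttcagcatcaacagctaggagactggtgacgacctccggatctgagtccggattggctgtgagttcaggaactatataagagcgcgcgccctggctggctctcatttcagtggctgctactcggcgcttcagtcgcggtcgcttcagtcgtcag
H2-D1: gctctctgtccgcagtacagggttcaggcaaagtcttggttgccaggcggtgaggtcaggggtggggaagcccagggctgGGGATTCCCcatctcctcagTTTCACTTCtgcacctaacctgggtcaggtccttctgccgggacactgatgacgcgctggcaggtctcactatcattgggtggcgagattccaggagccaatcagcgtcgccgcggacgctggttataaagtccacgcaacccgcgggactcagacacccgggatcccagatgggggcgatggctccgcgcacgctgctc
H2-K1: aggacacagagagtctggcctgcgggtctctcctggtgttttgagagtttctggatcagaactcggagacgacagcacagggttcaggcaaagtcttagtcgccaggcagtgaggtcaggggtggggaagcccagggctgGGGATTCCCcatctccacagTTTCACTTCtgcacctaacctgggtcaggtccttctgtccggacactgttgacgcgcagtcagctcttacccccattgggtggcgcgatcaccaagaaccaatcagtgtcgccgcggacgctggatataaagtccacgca

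In these windows Ifitm3 held GAAANNGAA at 2 places, both just after the start, at bases 3 to 11 and 20 to 28. Ifitm2 held it once, at bases -46 to -38, with the same letters, GAAAAGGAA, as the first place in Ifitm3. B2m held it once, as GAAACTGAA at bases -139 to -131. The Ifitm1 window held neither spacing. H2-D1 and H2-K1 each held GAANNGAAA, as GAAGTGAAA on the opposite strand, and each held GGGATTCCC. Among all 32851 windows of the RefSeq table, 8.56% held GAAANNGAA, 7.52% GAANNGAAA and 0.353% GGGATTCCC. A further sequence, TTCNNNGAA, the core of a STAT binding site and present in 8.30% of windows, was found once in Ifitm3, at bases 14 to 22, where it overlaps the second GAAANNGAA. Windows were found for 8 of the 9 genes, and those of Tap1 and Tapbp held none of the 4 sequences. A match is a stretch of letters and was not tied to binding by any measurement here.

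On the array scale a level is a log2 value after the authors' normalization. The dorsal array spanned 1.45 to 14.1 around a median of 3.15, and the ventral array 1.47 to 14.2 around 3.03. The 95th percentile over both arrays of 1365 receptor genes of smell and the vomeronasal organ, 3.92, is taken as the edge of background, and a fold whose lower level lies under their 99th percentile, 5.48, is less certain. A level at background does not show that a transcript was absent: Gapdh, a housekeeping gene, was at background on both arrays, at 2.12 dorsally and 2.05 ventrally. Eef1a1, a translation elongation factor made in bulk by most cells, read 3.94 dorsally, barely above the edge, and 3.28 ventrally, at background. Of the 24675 genes, 7101 were above background on at least 1 array, so most genes were at background on both. Genes were kept for counting where the higher of their 2 levels reached 3.10, the median of the genes' averaged levels, which left 13982 genes. Probes differ in brightness, so a level is compared between tissues for 1 gene and never between genes. Among position markers, 4 of 10 kept coelomic epithelium and gonadal ridge genes were higher by 2-fold or more ventrally on measured values and none dorsally. Over all kept genes 9.44% were so ventrally and 4.88% dorsally. With the dorsal level at background, Emx2 and Podxl were shown only to be at least 1.92-fold and 1.38-fold apart. Of 9 kept sclerotome genes, 3 were higher by 2-fold or more dorsally on measured values and none ventrally. Pax9 was 4.35-fold and Col2a1 2.96-fold higher dorsally. With its ventral level at background, the other, Uncx, was shown only to be at least 1.34-fold apart. Pax1, a defining sclerotome gene, was at background on both arrays.

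Among the Ifitm genes, Ifitm3 read 5.01 dorsally and 8.15 ventrally. That is a difference of 3.14 on the log2 scale, or 8.79-fold, with the dorsal level above the edge of background but under 5.48. Ranked by the ventral minus dorsal difference, Ifitm3 was number 110 of the 13982 kept genes. Of 4147 other protein-coding genes above background on both arrays, 26 had a difference as large. Ifitm2, whose product acts mainly in endosomes, read 9.45 dorsally and 9.41 ventrally. Its levels lay far above background on both arrays and differed by -0.04 on the log2 scale. Ifitm1, whose product resides mainly at the plasma membrane, was at background on both arrays, at 2.61 dorsally and 2.22 ventrally, and did not reach the floor for the comparison. The 3 paralogs thus had 3 patterns: 1 high in ventral tissue, 1 at nearly equal levels in both and 1 at background. The other Ifitm genes gave no difference of 2-fold. Ifitm7 was at 4.44 dorsally and 4.29 ventrally, whereas Ifitm5, a bone-restricted member, Ifitm6 and Ifitm10 were at background on both arrays. Ifitm2 and Ifitm3 are similar in sequence, and whether their probes also read each other or a related pseudogene was not tested, so the separate values are uncertain to that extent.

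**Figure D1:**
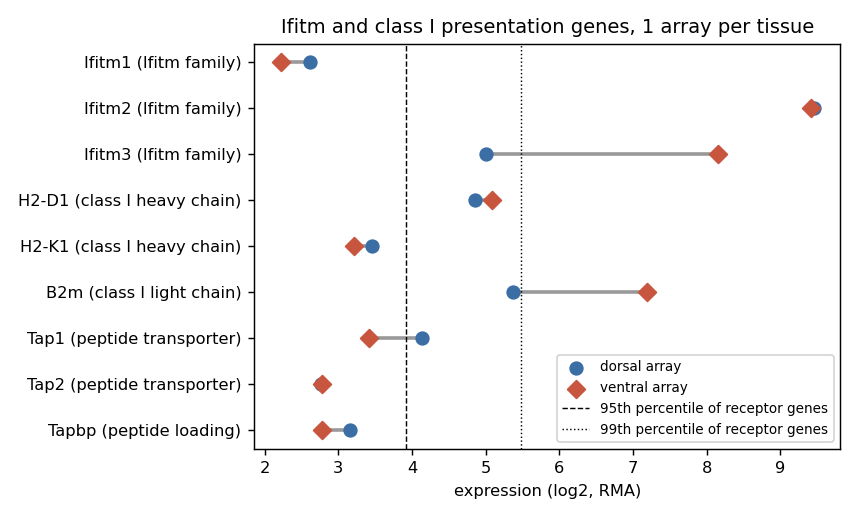
Levels of the 9 genes on the dorsal array (circles) and the ventral array (diamonds), on the log2 scale, with grey bars joining the 2 values of a gene; the dashed and dotted lines stand at 3.92 and 5.48, the 95th and 99th percentiles of the receptor genes. Ifitm3 and B2m have long bars that end in ventral tissue, at 8.15 and 7.18, while 4 of the 9 genes lie left of the dashed line on both arrays.

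The light and heavy chains of the class I molecule differed in pattern. B2m read 5.38 dorsally and 7.18 ventrally, a difference of 1.81 on the log2 scale, or 3.50-fold, and was number 488 of the 13982 kept genes from the ventral end. Its dorsal level lay just under 5.48. H2-D1 read 4.86 dorsally and 5.08 ventrally, above background on both arrays and within 2-fold, with a difference of 0.23. H2-K1 was at background on both arrays, at 3.46 dorsally and 3.21 ventrally, so that no fold can be given. Heavy chain genes are alike and highly polymorphic, and probes of H2-D1 and H2-K1 may read their relatives, so these values are uncertain. Over all 24675 genes, 7101 were above background on at least 1 array. Of 25 other class I and class I-like heavy chain genes with a feature, 23 were at background on both arrays. The remaining members were H2-T24, at 4.18 dorsally and 3.79 ventrally, and Fcgrt, the neonatal Fc receptor heavy chain, which also pairs with beta-2-microglobulin, at 3.95 and 3.54. Of the 8 kept genes of this list none was 2-fold apart or more, against 9.44% of all kept genes ventrally and 4.88% dorsally. Their median difference was -0.35 against -0.12 over all kept genes. H2-Q10, a secreted class I molecule of liver, was at 3.84 dorsally and 3.71 ventrally, and H2-T23, which encodes Qa-1, at 3.04 and 3.64. All 4 of those levels were at background.

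The genes of peptide transport and loading were at or near background. Tap1 read 4.13 in dorsal tissue, above background, and 3.41 in ventral tissue, at background. The dorsal level was at least 1.16-fold higher, and the measured difference of -0.72 was within 2-fold. Its ventral level being at background, the size of that difference is not known. Tap2 was at background on both arrays, at 2.76 dorsally and 2.77 ventrally, and did not reach the floor. Tapbp was also at background, at 3.16 dorsally and 2.78 ventrally. A difference between the tissues in Tap2, Tapbp, H2-K1 or Ifitm1 was not detectable at this signal.

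Of the 9 genes, 7 reached the floor, and 2 of these 7, Ifitm3 and B2m, were higher by 2-fold or more ventrally and none dorsally. The background is high: over all 13982 kept genes 9.44% were higher by 2-fold or more ventrally and 4.88% dorsally. Among the 4758 genes above background on both arrays 13.8% were higher by 2-fold or more ventrally, and 4 of the 9 genes, Ifitm2, Ifitm3, B2m and H2-D1, belonged to that set. Since the genes were chosen with these values known, nothing is read from their count. The median difference of the 7 genes was -0.04, that of Ifitm2, against -0.12 over all kept genes. In bulk tissue a greater share of cells that express a gene and more RNA per cell cannot be told apart.

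**Figure D2:**
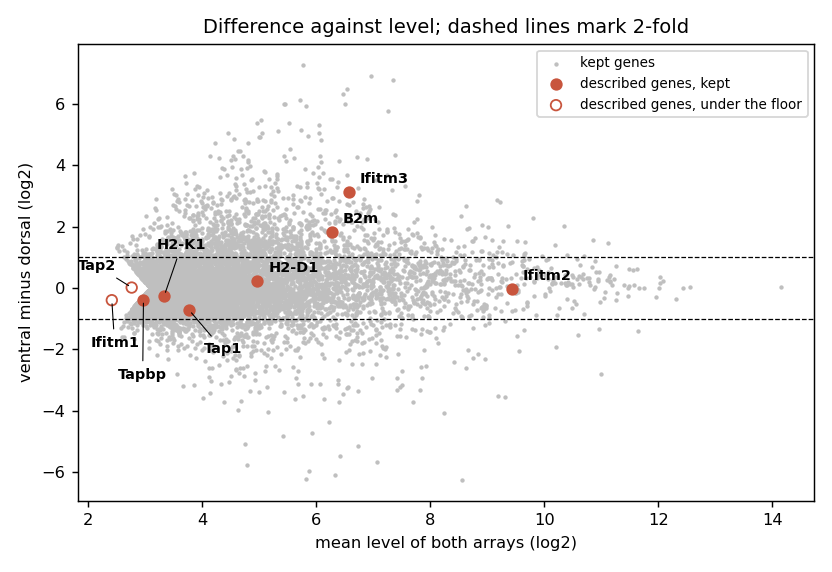
Difference between the tissues (ventral minus dorsal, log2) against the mean level of both arrays (log2) for 13982 kept genes (grey), with the described genes in red and open symbols for the 2 under the floor. Ifitm3 at 3.14 and B2m at 1.81 lie above the upper 2-fold line, within a cloud of other genes at similar level, and Ifitm2 lies at -0.04, far to the right.

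Genes that supply peptides to class I included several at a higher level in ventral tissue. Of 13 kept members 5 exceeded 2-fold there and none dorsally, with a median difference of 0.26, where 9.44% of all kept genes and 13.8% of those above background on both arrays did so ventrally. Psme1, the alpha subunit of the PA28 proteasome activator, which interferon gamma induces, read 5.54 dorsally and 7.33 ventrally, a 3.46-fold difference. Its partner subunit Psme2 was at 4.17 dorsally and 4.43 ventrally, within 2-fold, and so was Psme3, the nuclear activator, at 5.22 and 5.31. The catalytic subunits of the immunoproteasome, Psmb8, Psmb9 and Psmb10, were at background on both arrays, with levels from 3.11 to just under the edge of 3.92. The other genes with a ventral excess encode cytosolic peptidases of general use. Blmh, bleomycin hydrolase, read 4.08 dorsally and 7.36 ventrally, 9.74-fold apart, and Npepps, the puromycin-sensitive aminopeptidase, 4.01 and 5.55, 2.91-fold apart. Nrd1, nardilysin, was 2.71-fold and Tpp2, tripeptidyl peptidase 2, 2.56-fold higher ventrally. The dorsal levels of these peptidases all lay under 5.48, so their folds are less certain.

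Of 11 chaperones and other proteins of the endoplasmic reticulum that fold and load class I, 8 were above background on at least 1 array. Calr, calreticulin, was at 8.60 dorsally and 8.54 ventrally. Canx, calnexin, was at 9.03 dorsally and 9.86 ventrally, and Pdia3, the disulfide isomerase of the loading complex, at 8.41 and 9.01, all within 2-fold. Sec61a1 was higher dorsally, at 4.74 against 4.05, also within 2-fold. Of 9 kept members of this list 2 were higher by 2-fold or more ventrally, against 9.44% of all kept genes. P4hb, a disulfide isomerase, was 2.16-fold higher at 7.76 against 6.64, but its difference of 1.11 fell within 2-fold under quantile normalization, at 0.81, and under a loess on level, at 0.89. The other was Ganab, a glucosidase that trims glycans of new proteins, at least 2.22-fold higher at 5.07 against 3.40. These chaperones serve most secreted proteins and are not particular to class I.

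Of 13 transcription factors known to act on class I genes, 6 were at background on both arrays. Nlrc5, the class I transactivator, and Rfx5, a subunit of the complex that recruits it, did not reach the floor. Irf1 was at background on both arrays, at 3.32 dorsally and 2.91 ventrally. Of 10 kept regulators 2 were higher by 2-fold or more ventrally on measured values, against 9.44% of all kept genes. Creb1, a widely expressed factor that binds cyclic AMP response elements, was at 4.20 dorsally, under 5.48, and 6.55 ventrally, 5.10-fold apart. The other was its relative Atf1, at 4.76 against a dorsal level at background, 2.97, which bounds the fold at 1.79 or more. Nfyc, a subunit of the CCAAT-binding factor, was at 4.44 dorsally and 5.35 ventrally, within 2-fold. Rela was at background dorsally, at 3.36, and at 4.21 ventrally, at least 1.23-fold apart. The class II list holds genes that present peptides on professional antigen-presenting cells. None of its 4 kept genes was 2-fold apart or more, against 9.44% of all kept genes ventrally and 4.88% dorsally. The class II invariant chain Cd74 was at background on both arrays, at 3.16 dorsally and 2.89 ventrally. Only Ciita in this list was above background, at 3.98 dorsally, against 3.31 ventrally, within 2-fold.

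Of 16 kept receptor and JAK-STAT genes 3 were higher by 2-fold or more ventrally, against 9.44% of all kept genes. On measured values 2 were so dorsally, against 4.88%, but neither was shown to be 2-fold apart given background. Ifnar2, a subunit of the type I interferon receptor, was at 3.46 dorsally and 6.76 ventrally, at least 7.17-fold apart, while Ifnar1, the other subunit, was at 4.37 and 5.04, within 2-fold. Pias1, an inhibitor of activated STAT proteins, was at least 3.66-fold higher ventrally, and Ptpn2, a phosphatase that turns off JAK-STAT signalling, at least 2.14-fold. Of the 2 on the dorsal side, Stat3 was at 4.17 dorsally and 2.77 ventrally, at least 1.19-fold apart. Ifnlr1 had both levels at background, 3.87 and 2.80, and its measured difference of -1.07 was within 2-fold under each of the 3 scaling alternatives, quantile normalization, centring and loess. Jak1, the kinase shared by all interferon receptors, was at 5.87 dorsally and 6.21 ventrally.

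Other genes that interferon raises were mostly at background, where a difference was not detectable. Of 55 such genes with a feature, 51 were at background on both arrays, while 7101 of all 24675 genes were above it on at least 1. Of 23 kept none was 2-fold apart or more, against 9.44% of all kept genes ventrally and 4.88% dorsally. Their differences ran from -0.70 to 0.46, with a median of -0.15 against -0.12 over all kept genes. The 4 above background on at least 1 array were Samhd1, a nucleotide hydrolase that restricts viruses, at 5.81 dorsally and 5.86 ventrally, Ifit3, an antiviral RNA-binding protein, at 5.36 and 4.79, Bst2, which tethers budding virions, at 4.15 and 3.46, and Isg20, an exonuclease, at 3.94 and 3.78. Each of these 4 was within 2-fold. Among interferon genes themselves, Ifna4 was at 5.10 dorsally, under 5.48, and 7.06 ventrally, 3.90-fold apart. The other 7 kept ligand genes were within 2-fold, where 9.44% of all kept genes were higher by 2-fold or more ventrally. Interferon alpha genes are near-identical copies, so the level of 1 of them is uncertain.

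**Figure D3:**
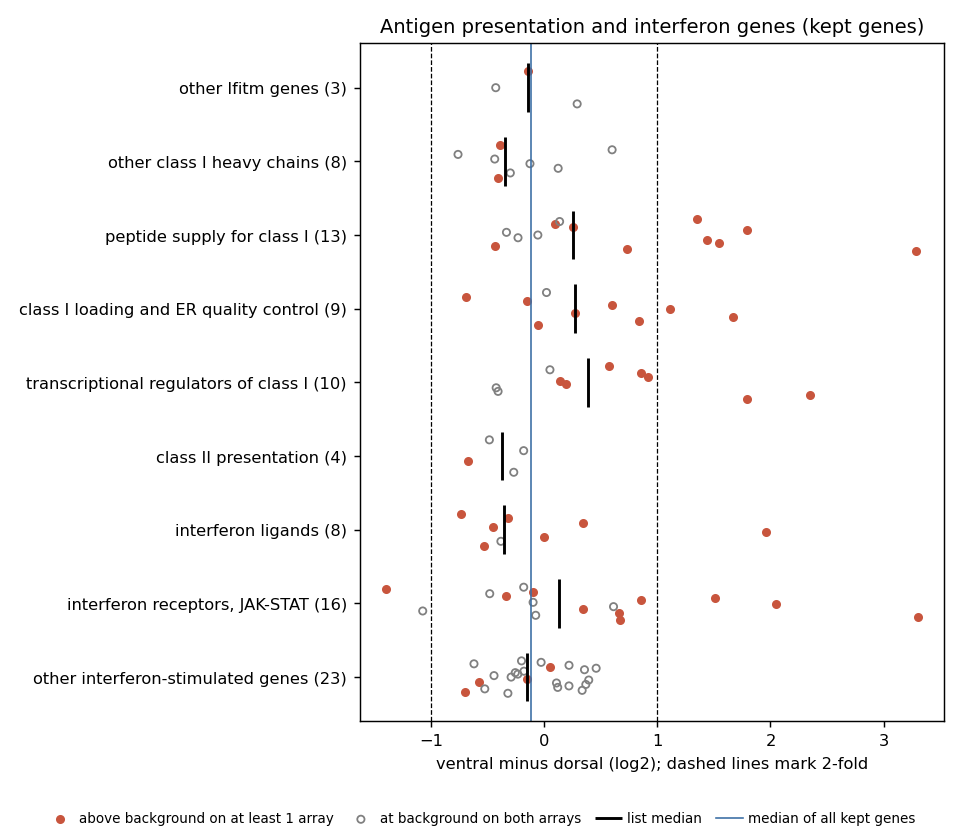
Difference between the tissues (ventral minus dorsal, log2) for the kept genes of each list, with the number kept in brackets; filled points were above background on at least 1 array, open points on neither, vertical position within a row has no meaning, black ticks are list medians and the blue line the median of all kept genes, -0.12. Points past the right dashed line, which marks 2-fold, come from peptide supply, chaperones, regulators, ligands and receptors. None comes from the 23 kept interferon-stimulated genes, of which only 4 were above background on at least 1 array. Over all kept genes 9.44% lay past that line.

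Markers of cell types that either piece could hold were set beside these values. Their background counts stand against 7101 of all 24675 genes above background on at least 1 array. Of 16 primordial germ cell markers 14 were at background on both arrays, Pou5f1 at 3.42 dorsally and 2.97 ventrally among them, along with Ddx4, Dazl, Nanos3 and Kit. The exceptions were Dppa3, also called stella, at 2.95 dorsally and 5.92 ventrally, at least 4.01-fold apart, and Sall4, at 4.72 and 4.58. The summed linear level of the list, in which the brightest probes weigh most, was 149 in dorsal and 190 in ventral tissue. Without Dppa3 it was 142 and 129, a sum made mostly of genes at background, from which no direction is read. Dppa3 lay on the same side as Ifitm3, while in the 14 markers at background a difference was not detectable. The part of germ cells in the level of Ifitm3 was not tested. Of 16 markers of leukocytes and macrophages, cells in which Ifitm and class I genes are usually high, 12 were at background on both arrays. None of 10 kept members was 2-fold apart, against 9.44% of all kept genes ventrally and 4.88% dorsally. Only 4 markers were above background on at least 1 array, and in the 12 others a difference was not detectable. Ptprc, which encodes CD45, was at 2.24 dorsally and 2.44 ventrally, and Csf1r, the macrophage growth factor receptor, at 2.80 and 2.70. The summed level of that list, in which the brightest probes again weigh most, was 221 in dorsal and 192 in ventral tissue. Cx3cr1, a chemokine receptor of macrophages, lay well above background, at 6.07 dorsally and 5.62 ventrally. Fcer1g, at 4.35 dorsally and 3.94 ventrally, and C1qc, at 4.66 and 4.42, were above background on both arrays. C1qb, at 3.90 and 4.00, was so on the ventral array alone.

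Some endothelial and coelomic markers lay on the side of Ifitm3 and B2m. Of 13 kept endothelial markers 3 were at least 2-fold higher there on measured values, against 9.44% of all kept genes. They were Cdh5, at 6.64 against 4.22, Emcn, at 5.15 against 3.27, and Kdr, at 4.83 against 3.75, whose fold is bounded only at 1.88 or more. Pecam1, at 4.02 dorsally and 4.99 ventrally, was within 2-fold, at 1.96-fold. Others were nearly level, such as Ramp2 at 5.69 dorsally and 5.72 ventrally, or lower ventrally, such as Eng at 4.09 and 3.53 and Sox17 at 4.68 and 4.47. The summed level of the list, in which the brightest probes weigh most, was 240.0 in dorsal and 369 in ventral tissue. Of 10 kept coelomic epithelium and gonadal ridge markers 4 were higher by 2-fold or more ventrally on measured values, against 9.44% of all kept genes. The bounds for Emx2 and Podxl were 1.92-fold and 1.38-fold. The summed level of this list, in which the brightest probes again weigh most, was 117 in dorsal and 336 in ventral tissue. All 11 of these markers were at background in dorsal tissue, Wt1 at 3.80 and Tcf21 at 2.79, against 6.61 and 6.38 in ventral tissue. The part of either cell type in the levels of Ifitm3 and B2m was not tested. Among 7 kept erythroid genes the embryonic globin Hbb-y read 12.01 dorsally with a difference of -0.01. Klf1, an erythroid transcription factor, was the 1 past 2-fold, against 4.88% of all kept genes dorsally. It was higher dorsally at 5.35 against 4.25, a difference of -1.10. That difference became -0.98, within 2-fold, with differences centred on the median of kept genes. Of 9 kept housekeeping genes 1 was at least 2-fold higher in each direction, against 9.44% of all kept genes ventrally and 4.88% dorsally. Actb, cytoplasmic actin, was 2.44-fold higher dorsally at 8.89 against 7.60, and Gusb had both levels at background, 2.43 and 3.54. The difference of Actb, a gene far above background, was thus -1.28 on the log2 scale, and 1 array per tissue gives no spread to judge it by.

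**Figure D4:**
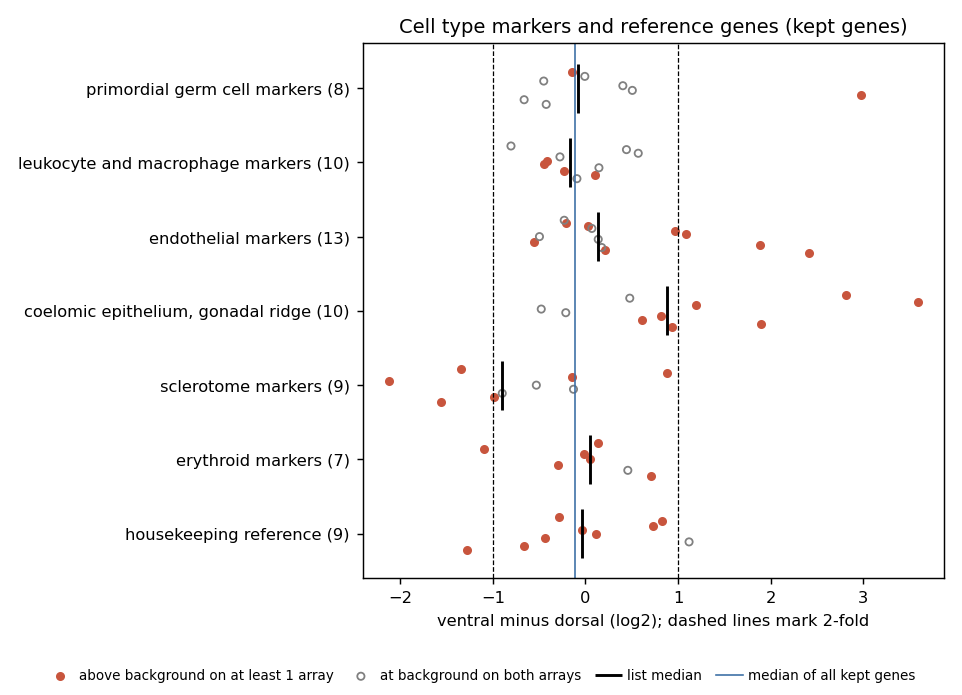
Difference between the tissues (ventral minus dorsal, log2) for the kept genes of the marker and housekeeping lists, drawn as filled points above background on at least 1 array and open points at background on both, with black ticks for list medians. The dashed lines mark 2-fold, and height within a row has no meaning. The list median is 0.88 for coelomic and -0.90 for sclerotome genes, and Dppa3 at 2.98 stands alone on the right among the 8 kept germ cell markers.

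The Ifitm and heavy chain genes lie in clusters, and the neighbours of Ifitm3, B2m and Tap1 were examined, a choice made after the values were seen. In GRCm38.p6 the order on chromosome 7 is Ifitm5, Ifitm2, Ifitm1, Ifitm3 and Ifitm6. Of the 10 protein-coding genes with a feature nearest to Ifitm3, 5 on each side, 5 were kept and 8 were at background on both arrays. None was 2-fold apart or more, against 9.44% of all kept genes ventrally and 4.88% dorsally. Outside the family only Pkp3, plakophilin 3, among these neighbours was above background, at 4.09 in ventral against 3.72 in dorsal tissue. The 10 neighbours of B2m on chromosome 2 likewise included none 2-fold apart or more, but 6 were kept and 8 were at background on both arrays. At background a difference was not detectable, and of all 24675 genes 7101 were above background on at least 1 array. Of the 10 neighbours of B2m, Ctdspl2, a phosphatase, was at 7.69 dorsally and 6.88 ventrally, and Golm2 at 3.87 and 4.78, each within 2-fold and of opposite sign. On chromosome 17 the genes Psmb9, Tap1, Psmb8 and Tap2 follow each other within the MHC, and of the 10 neighbours of Tap1 only Brd2, a bromodomain protein, was above background, at 6.35 dorsally and 6.42 ventrally.

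**Figure D5:**
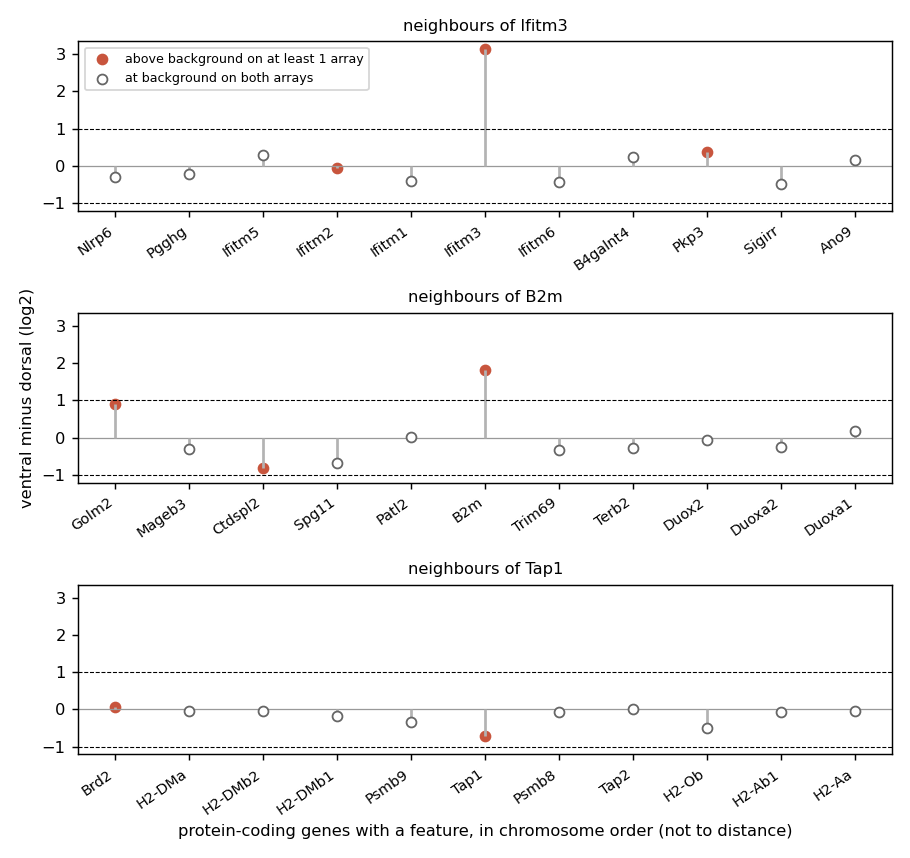
Difference between the tissues (ventral minus dorsal, log2) for 5 protein-coding genes on each side of Ifitm3, B2m and Tap1, placed in chromosome order and not by distance; filled points were above background on at least 1 array and dashed lines mark 2-fold. Ifitm3 at 3.14 and B2m at 1.81 stand alone beyond the upper line among their neighbours, of which 8 of 10 in each case were at background on both arrays.

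The 5 protein-coding genes above background on both arrays whose difference came nearest to that of Ifitm3, over the 2 arrays, were Ggnbp2, Arxes2, M6pr, Khdrbs3 and Brix1. Ggnbp2 was at 5.74 dorsally and 8.94 ventrally, with a difference of 3.20. M6pr, the cation-dependent mannose 6-phosphate receptor that sorts lysosomal enzymes, had a difference of 3.22, and Brix1, a ribosome biogenesis factor, one of 3.03. The dorsal levels of M6pr and Brix1, 4.44 and 4.08, lay under 5.48. With 2 arrays, likeness means only a difference of similar size.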

How the data were processed

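RNA from laser-cut sections was amplified from 200 to 1000 pg by a single-primer isothermal method and hybridised to Affymetrix arrays, per the labels' protocols; such amplification can lose or over-represent transcripts. The deposited values are log2 expression, 1 per gene and array, made, per the submitters' processing notes, with Affymetrix Expression Console by RMA (background correction, quantile normalization, median polish). No source used here gives versions, build or probe annotation. Of 25429 features, 754 with no symbol or more than 1 in the platform annotation were left out.

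The ventral minus dorsal log2 difference was computed per gene. Genes whose higher level reached 3.10, the median over genes of the mean of both arrays, were kept. A single array per tissue allowed no test; genes were counted at 2-fold. Where the lower level was under 3.92 the fold is a lower bound, the higher level against 3.92, and where both were under it none is given. The members, 16 gene lists (277 genes, 255 with a feature; others not analysed here), and floors were chosen with earlier results of these data known. Named were all members, defining markers at background and the 5 genes nearest Ifitm3 in difference. List genes above background were also named, mostly those with large differences but not always the 4 largest of a list. Further list genes or neighbours were singled out after their values were seen. Promoter windows came from RefSeq (GRCm38.p6). Alternatives covered quantile normalization, centring, a loess (span 0.3), other floors, folds of 1.5 and 3 and the mean in place of the median. The steps were tested on simulated data. Python 3.11.15, numpy 2.4.6, pandas 2.3.3, statsmodels 0.14.6 and matplotlib 3.10.9 were used.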

Additional observations from a re-analysis of the deposited data

How the results depend on the processing

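The 2 members at least 2-fold apart, Ifitm3 and B2m, remained so under quantile normalization of the 2 columns, centring on the median of kept genes and a loess on level. Over these 3 settings the difference of Ifitm3 ran from 2.88 to 3.25 and that of B2m from 1.51 to 1.93. No other member passed 2-fold under them. The sign of Ifitm2 was not stable, from -0.31 to 0.08. The loess values of Ifitm1 and Tap2, which lay under the floor, were left out. At a 1.5-fold threshold 3 members were apart, with Tap1 added, and at 3-fold the 2 remained. Of the list genes 29 were at least 2-fold apart, against 27 under quantile normalization, 30 with centring, 28 with the loess, 58 at 1.5-fold, 15 at 3-fold and 17 with the floor at the receptor genes' 99th percentile, a setting added after seeing the data. Calls lost under scaling were P4hb (quantile, loess), Ifnlr1 (all 3) and Klf1 (centring), and calls gained were Nfyc and Pecam1 (centring) and Aldh1a2 (centring, loess). The median difference of the kept members, -0.04, was -0.15 under quantile normalization, 0.08 with centring and -0.05 with the loess. It was 0.23 over the 5 members left with the floor at the 95th percentile. The mean in place of the median was 0.54. With the floor at the 99th percentile 3 members were left and their median difference was 1.81 against -0.04, since fewer genes entered. No paired analysis was possible because the tissues, from the same embryos, form only 1 pair of arrays. Signal over background limits the values of the 4 members at background on both arrays.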

Other observations

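The response element letters seen in Ifitm3 and B2m were looked for in all genes, as a description. Of 10604 kept genes with a promoter window, 713 held GAAANNGAA. Their median difference was -0.10 on the log2 scale and that of the genes without it -0.12, and 10.5% of them were higher by 2-fold or more ventrally against 9.13% of the others. Of 42 interferon-stimulated genes with a window 20 held these letters, and 5 of them were kept: Ifit1, Ifit3, Oas3, Bst2 and Cxcl9. Their measured differences were 0.11, -0.58, -0.26, -0.70 and -0.53, each within 2-fold. Only Ifit3 exceeded the edge of background, 3.92, in both tissues, at 5.36 dorsally and 4.79 ventrally. Bst2 exceeded it in dorsal tissue alone. Ifit1, Oas3 and Cxcl9 stayed under it in each tissue, so for these genes neither a rise nor a fall can be read.

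Several interferon ligand genes read above the receptor genes' 95th percentile, Ifnl2 at 6.43 dorsally and 6.10 ventrally, Ifnl3 at 5.38 and 4.64, and Ifna15 at 4.74 on both arrays. Of 17 ligand genes with a feature 10 were at background on both arrays. Over all 24675 genes, 7101 were above background on at least 1 array.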
